A study of Mus musculus with 3 samples.

Results

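Basal keratinocytes form the lowest layer of the epidermis between the hair follicles, and 2325 barcodes were selected as such cells out of 33204 quality-filtered barcodes of mouse dorsal skin. A barcode passed the quality filter with at least 500 genes, at least 1000 UMIs (unique molecular identifiers, 1 per captured transcript molecule) and at most 15% mitochondrial UMIs. It was selected with at least 3 Krt5 and 5 Krt14 UMIs, at least 2 of the 5 genes Col17a1, Krt15, Fcgbp, Wnt3 and Wnt4, at most 5 UMIs of Krtdap plus Krt10, at most 1 UMI of Mki67, Cenpf and Ube2c together, at most 1 detected gene in each of the follicle sets (Lhx2, Lgr5 and Krt24; Plet1, Fst, Sostdc1 and Pyy), and 0 UMIs of Ptprc and Pecam1. The cells were thus chosen by their measured UMI counts of 21 genes, whose values are given as description only. The selection held 179 cells of the knockout, 1336 of the old control and 810 of the young control.

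The skin came from 3 groups, each captured as 1 droplet library with the 10x Genomics 3′ v3.1 chemistry after collagenase I digestion. The knockout mice were 2.5 months old, carried R26-CAG-CreER with Yap1 fl/fl and Wwtr1 fl/fl, and were treated with tamoxifen. The old control mice were 24 months old, wild-type and untreated. The young control mice were 2.5 months old, carried Yap1 fl/fl and Wwtr1 fl/fl without the recombinase, and were treated with tamoxifen as the knockout was. Each tamoxifen dose was 0.11 mg/g body weight by gavage, given for 4 weeks on 2 days of each week. The CAG promoter drives the recombinase in nearly every cell type, so a keratinocyte difference cannot be told apart from one that follows from loss of both genes in dermis, vessels or nerve, and age cannot be told apart from genotype and tamoxifen in the old control. The sources used here do not give how many mice made up a library. Ddx3y, a Y-linked gene, had 95.7 CPM (UMIs scaled to a common total for the summed cells of each library) in knockout cells and 0 UMIs in old and young control cells, whereas the X-inactivation RNA Xist had 0 UMIs in knockout cells, 1551 CPM in old control cells and 2438 CPM in young control cells. The knockout and young control libraries thus differ in sex-linked expression as well as in genotype, and these cannot be told apart.

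Basal keratinocytes sit on the basement membrane, to which hemidesmosomes built around integrin α6β4 and collagen XVII anchor their keratin 5 and keratin 14 filaments. They include the stem cells of the interfollicular epidermis, and detachment from the membrane goes with entry into the keratin 1 and keratin 10 program of the layers above. YAP and TAZ (the products of Yap1 and Wwtr1) are transcriptional co-activators that the Hippo kinases hold out of the nucleus and that bind DNA through TEAD factors. In mouse epidermis they are known for nuclear localisation in basal cells and for a role in proliferation and wound repair.

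The sum of basal genes outside the selection was lowest in the knockout, and stood out from its own library's other barcodes most in the young control. The 10 basal genes that the selection did not use (Itga6, Itgb4, Itga3, Trp63, Lamb3, Col7a1, Dst, Cd44, Sfn and Perp) summed to 3677 CPM in knockout cells, 8269 CPM in old control cells and 8408 CPM in young control cells. Single genes differed: Cd44 had 256, 196 and 182 CPM in the knockout, old control and young control, and Sfn 1502, 4209 and 2412 CPM. The old over young median log2 ratio of the 10 genes was -0.71, with 8 ratios under 1. In barcodes that missed the Krt5 and Krt14 threshold, the same sum was 1568 CPM in the knockout, 3726 CPM in the old control and 1982 CPM in the young control. The selected cells were thus 2.35-fold above those barcodes in the knockout, 2.22-fold in the old control and 4.24-fold in the young control. Itga6 and Itgb4, the 2 chains of the hemidesmosome integrin, reached 264 and 128 CPM in knockout cells against 219.8 and 133 CPM in the knockout barcodes without the keratin threshold. In young control cells they reached 909 and 313 CPM, against 159 and 57.4 CPM in the barcodes of that library without it. Itga6, Itgb4 and Dst were thus at similar levels in both knockout sets (Dst at 637 and 549 CPM), while Itga3 was at 51.9 and 19.4 CPM and Trp63 at 165 and 28.5 CPM in selected knockout cells and in knockout barcodes without the threshold. For Sfn, Lamb3, Perp, Col7a1 and Cd44 the ratio of selected cells to those barcodes was 4.88, 4.51, 4.42, 2.76 and 1.70 in the knockout. In the old control these ratios were 2.34, 3.65, 1.61, 2.78 and 0.962, and in the young control 4.62, 14.3, 3.48, 4.40 and 0.597. Other basal genes thus stood out in the knockout, but Itga6, Itgb4 and Dst did not. The knockout selection is therefore called by its rule below, as Krt5- and Krt14-positive knockout cells.

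RNA of other cell types was present in all 3 selections. The 7 fibroblast markers summed to 3874 CPM in knockout cells, 1901 CPM in old control cells and 5833 CPM in young control cells, and all 7 were detected in each. Mural and muscle markers (5 of 5 detected in each library) summed to 2637, 296 and 326 CPM in the knockout, old control and young control. Schwann cell markers (3 of 3) summed to 1210.1, 223 and 117 CPM in the same order. The young control was thus highest in fibroblast RNA and the knockout in mural and nerve RNA. Sebocyte markers (5 of 5) summed to 2861, 767 and 891 CPM, and melanocyte markers (4 of 4) to 321, 98.7 and 45.1 CPM. Upper follicle markers (6 of 6 detected) summed, without the selection gene Plet1, to 2315, 1695 and 424 CPM. Plet1 itself had 125, 403.5 and 226 CPM in the same order. Suprabasal markers, summed without Krt10 and Krtdap, which the selection capped, reached 746, 285 and 248 CPM. Lor and Flg, genes of the outermost living layers, were at 0 UMIs in the knockout. Immune markers, with Ptprc at 0 by selection, summed to 273, 918 and 230.0 CPM. Bulge markers of the follicle (7 of 7 detected), summed without the selection genes Krt24, Lhx2 and Lgr5, reached 461, 267 and 226 CPM. These sums were 1.58-, 0.592- and 0.328-fold those of barcodes that missed the keratin threshold. The sebocyte, melanocyte, upper follicle, bulge and suprabasal sums were therefore highest in the knockout, and the immune sum in the old control.

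**Figure D1:**
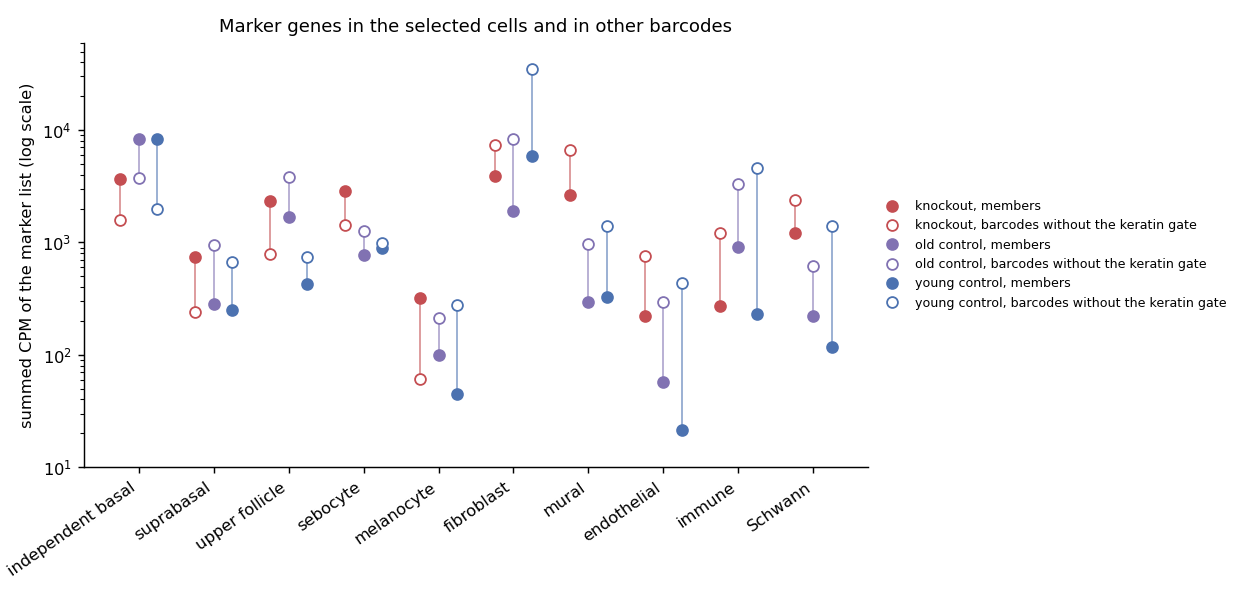
Summed CPM of marker lists, selection genes left out (log scale), in the selected cells (filled) and in barcodes without the Krt5 and Krt14 threshold (open) of the knockout, old control and young control libraries. The basal list lies above the open points in all 3 libraries, and the sebocyte, upper follicle, suprabasal and melanocyte lists lie above the open points in the knockout only; each point is 1 library.

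Per cell, markers of fibroblast, endothelial, mural, immune and Schwann cells took a median of 0.720% of UMIs in knockout cells, 0.388% in old control cells and 0.154% in young control cells. A minority of young control cells lay far above that median, with a 95th percentile of 2.81%. Markers of other cell types, here with skeletal muscle and red cells, were compared with the library's barcodes without the keratin threshold. Their summed level in selected cells was 45.3% of that in those barcodes in the knockout, 25.8% in the old control and 18.2% in the young control. This percentage was taken as the part of RNA like those barcodes, and likeness of whole profiles was not measured. Single lists had ratios from 0.227 (immune) to 0.592 (skeletal muscle) in the knockout. In the young control they ran from 0.0494 (endothelial) to 1.10 (red cell). Measured instead against barcodes under 500 genes, taken as free RNA, the part was 15.04% in the knockout, 12.6% in the old control and 4.16% in the young control, and the subtraction below uses the larger estimates. The results below were therefore also computed in 3 stricter views, all chosen after the data were seen. In the first, that part was subtracted. The barcodes without the threshold also held keratinocyte RNA, with Krt14 at 366, 934 and 301 CPM in the knockout, old control and young control. The subtraction therefore also took away keratinocyte RNA. In the second, only low-marker cells were kept, with at most 0.5% of their UMIs from those markers, which left 60 knockout, 818 old control and 715 young control cells. In the third, only keratin-rich cells were kept, with Krt5 plus Krt14 at 1% of UMIs or more, which left 26 knockout, 543 old control and 526 young control cells. The low-marker knockout cells still held 4655 CPM of sebocyte markers, and the keratin-rich knockout cells 470.2 CPM. Upper follicle markers likewise had 2163 and 401 CPM. Other lists went the opposite way. Fibroblast, mural, Schwann cell and melanocyte markers had 949, 432, 214 and 569 CPM in low-marker knockout cells. In keratin-rich knockout cells they had 2752, 1216, 1388 and 1411 CPM, so that view is not freer of such RNA.

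**Figure D2:**
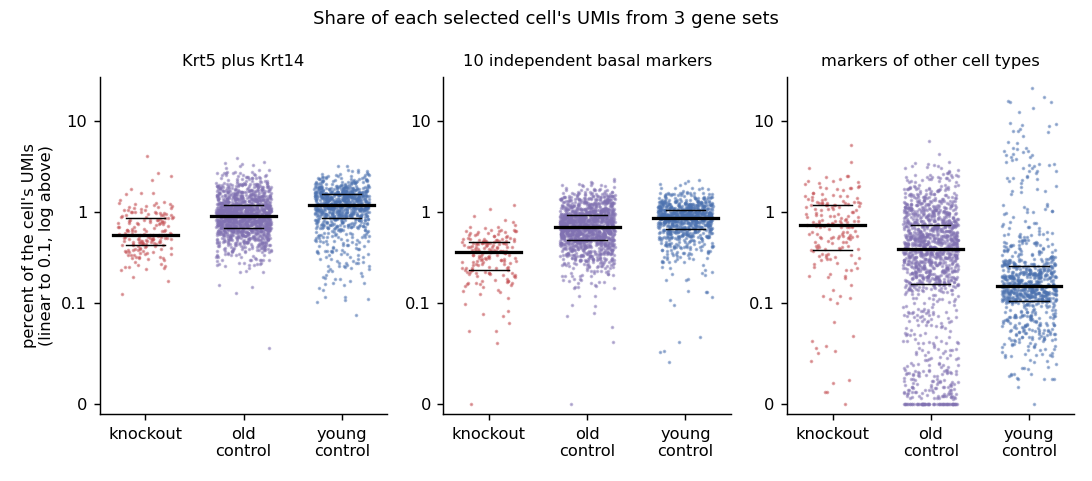
Percent of each selected cell's UMIs from Krt5 plus Krt14, from the 10 basal genes outside the selection and from markers of fibroblast, endothelial, mural, immune and Schwann cells, in knockout, old control and young control cells; points are cells, lines are quartiles and the median, and the axis is linear to 0.1 and logarithmic above. The keratin share has a median of 0.555% in knockout, 0.898% in old control and 1.18% in young control cells.

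The selection took 1.90% [1.64 to 2.20] of quality-filtered knockout barcodes (179 of 9408), 11.1% [10.5 to 11.6] of old control barcodes (1336 of 12074) and 6.91% [6.46 to 7.38] of young control barcodes (810 of 11722). Brackets here and below are exact 95% intervals for counting error only, since no group had a replicate library and no test across mice could be made. The thresholds are absolute UMI counts and the depth differed: the selected cells had a median of 2659 UMIs and 9.67% mitochondrial UMIs in the knockout, 1815 UMIs and 7.11% in the old control, and 7723.5 UMIs and 4.94% in the young control. Over the 6844 knockout, 7290 old control and 10693 young control barcodes of at least 1500 UMIs, the shares were 2.34% [1.99 to 2.72], 12.2% [11.4 to 12.9] and 7.50% [7.01 to 8.02]. With those barcodes thinned to 1500 UMIs before selection, they were 2.15% [1.82 to 2.52] in the knockout, 13.2% [12.5 to 14] in the old control and 9.96% [9.40 to 10.5] in the young control. The knockout share was the lowest and the old control share the highest in each version. Digestion and barcode filtering also set such shares, and their part was not tested.

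Many knockout and old control cells lay at the thresholds. Exactly 2 of the 5 basal genes were detected in 105 of 179 knockout cells, 499 of 1336 old control cells and 47 of 810 young control cells. Just outside, 93 knockout, 185 old control and 17 young control barcodes met every other condition with 1 basal gene. Thinning to 1500 UMIs kept 160 of 179 knockout cells, 886 of 1336 old control cells and 802 of 810 young control cells, leaving out the shallower ones. In the thinned cells Krt5 averaged 4.44 UMIs per cell in the knockout, 6.14 in the old control and 10.3 in the young control. Krt14 averaged 5.30, 8.13 and 7.63 UMIs in the same order. Krt15, a keratin of basal cells and the follicle bulge, spanned 0 to 8.05 UMIs (5th to 95th percentile) in the knockout, 1 to 14.8 in the old control and 1 to 20 in the young control. These genes made the selection, and their spread is given as a description.

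Genes outside the selection also differed in the share of cells with a UMI. Itga6 and Trp63 were detected least often in the knockout and most often in the young control, and Krt17 least often in the young control. Itga6 was detected in 30.6% [23.6 to 38.4] of thinned knockout cells, 43.7% [40.4 to 47.0] of old control cells and 70.6% [67.3 to 73.7] of young control cells, against 15.9% [11.7 to 20.9], 4.71% [2.60 to 7.78] and 10.0% [7.95 to 12.4] of Ptprc-positive cells of the same libraries. These Ptprc-positive cells held at most 1 UMI of Krt5 and Krt14 together, which keeps out barcodes with more keratinocyte RNA and can lower their shares. Leukocytes can express Itga6, so its share there is not background alone. Trp63, which encodes the master regulator of stratified epithelia p63, was detected in 24.4% [17.9 to 31.8], 31.0% [28 to 34.2] and 50.6% [47.1 to 54.1] of the selected cells of the knockout, old control and young control, against 0.758% [0.0919 to 2.71], 2.36% [0.953 to 4.80] and 5.33% [3.84 to 7.19] of Ptprc-positive cells. Krt17, a keratin of the follicle and of injured epidermis, was detected in 52.5% [44.5 to 60.4] of knockout cells, 50.7% [47.3 to 54.0] of old control cells and 16.8% [14.3 to 19.6] of young control cells, against 6.82% [4.09 to 10.6], 13.8% [10.1 to 18.3] and 12.3% [10.0 to 14.8] of Ptprc-positive cells. The unthinned shares for Itga6 were 46.9% [39.4 to 54.5], 53.7% [51.0 to 56.4] and 95.3% [93.6 to 96.7], those for Trp63 36.3% [29.3 to 43.8], 40.8% [38.1 to 43.5] and 90.5% [88.3 to 92.4], and those for Krt17 61.5% [53.9 to 68.6], 60.7% [58.0 to 63.3] and 39.6% [36.2 to 43.1], at median depths of 2659, 1815 and 7723.5 UMIs.

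The floxed genes were checked first. Yap1 (chr9:7931999-8004596, minus strand, GENCODE M21 on GRCm38) had 14 UMIs in the summed knockout cells, 362 in old control cells and 911 in young control cells, or 22.7 CPM [12.4 to 38.1], 81.2 CPM [73.1 to 90.1] and 136 CPM [127 to 145]. The knockout over young control ratio was 0.167 [0.0909 to 0.282] and the old over young control ratio 0.597 [0.527 to 0.675]. Wwtr1 (chr3:57455649-57575910, minus strand) had 4, 486 and 898 UMIs, or 6.49 CPM [1.77 to 16.6], 109 CPM [99.6 to 119] and 134 CPM [125 to 143], in the knockout, old control and young control. Its ratios were 0.0484 [0.0132 to 0.124] for the knockout and 0.813 [0.727 to 0.909] for the old control, each over the young control. In thinned cells Yap1 was detected in 2.50% [0.685 to 6.28] of knockout cells, against 5.68% [3.21 to 9.20] of knockout Ptprc-positive cells, and Wwtr1 in 1.25% [0.152 to 4.44] of knockout cells, against 3.03% [1.32 to 5.88]. Both knockout shares are no higher than those of these immune cells, chosen with the same cap on Krt5 and Krt14, and are read as background. In thinned old control cells Yap1 was detected in 10.7% [8.76 to 12.9] and in young control cells in 18.3% [15.7 to 21.2], against 0.673% [0.0817 to 2.41] and 4.13% [2.83 to 5.82] of their Ptprc-positive cells. Wwtr1 was detected in 15.5% [13.1 to 18.0] and 18.2% [15.6 to 21.1] of old and young control cells, against 2.36% [0.953 to 4.80] and 5.60% [4.07 to 7.49]. Unthinned, Yap1 was detected in 6.70% [3.51 to 11.4], 19.8% [17.7 to 22.1] and 61.6% [58.2 to 65.0] and Wwtr1 in 2.23% [0.612 to 5.62], 23.8% [21.5 to 26.2] and 58.9% [55.4 to 62.3] of knockout, old control and young control cells. Before thinning, Ptprc-positive cells had median depths of 2617 UMIs in the knockout, 3579 in the old control and 3089 in the young control. The 3′ reads count transcripts and do not show which exons were lost.

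**Figure D3:**
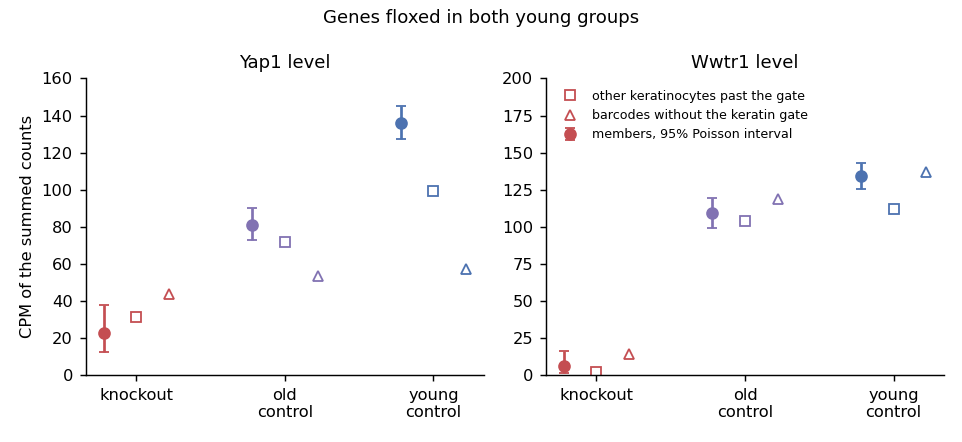
Levels of Yap1 and Wwtr1 (CPM of summed counts) in the selected cells (filled, exact 95% Poisson interval), in other keratinocytes past the Krt5 and Krt14 threshold (squares) and in barcodes without it (triangles) of the knockout, old control and young control libraries. Both genes are lowest in the knockout in every cell set, with Wwtr1 at 6.49 CPM in selected knockout cells and 14.1 CPM in knockout barcodes without the threshold.

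Across the 6102 genes with a mean of at least 20 CPM over the 3 libraries, 540 (8.85%) were called higher and 380 (6.23%) lower in knockout than in young control cells. A gene barely detected in both controls passed this filter only by being high in the knockout, so the filter fixed its call. Sele, for example, had 118, 2.24 and 0.149 CPM in the knockout, old control and young control. The excess of higher over lower calls therefore depends on the filter. It was smaller with a filter at 50 CPM, from fewer genes tested. Calls were made by size and without a test: the CPM ratio had to reach 2, or drop to 0.5, with an interval lying wholly beyond 1.5-fold. With TMM scaling the split was 397 higher and 551 lower, and with median-of-ratios scaling 424 and 502, as these scalings move the median of all genes by -0.20 and -0.15 on the log2 scale. Of the 540 genes called higher, 328 were at least as abundant in the knockout barcodes without the keratin threshold. Calls that also passed after subtraction and in low-marker cells, termed robust below, numbered 220 higher (3.61%) and 211 lower (3.46%). The term does not ask for a call in keratin-rich cells, where 75 of those 220 and 79 of those 211 were also called. Between old and young control cells, 152 genes (2.49%) were called higher and 126 (2.06%) lower, of which 63 (1.03%) and 82 (1.34%) were robust. Of these robust genes, 42 of 63 and 54 of 82 were also called in keratin-rich cells. In cells of 2000 to 8000 UMIs alone, 337 genes were called higher and 250 lower in old control cells. Among the 152, 129 were at least as abundant in old control barcodes without the keratin threshold. Such barcodes hold keratinocyte RNA too, so neither the 328 nor the 129 counts genes of other cell types. Both comparisons use the same young control cells. Among the genes named below are the 12 highest and 12 lowest ratios of each comparison and the most abundant members of each gene list, and further list members were chosen after their values were seen.

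All 12 genes with the lowest ratios in knockout cells were robust. Ccl27a (chr4:41769467-41774247, minus strand), which encodes the keratinocyte chemokine that draws T cells to skin, had 118 CPM [92.8 to 149] in knockout cells, 915 CPM [887 to 944] in old control cells and 1519.6 CPM [1490.2 to 1549] in young control cells, a knockout ratio of 0.0779 [0.0610 to 0.0981]. It stayed at 0.0801 [0.0557 to 0.111] in low-marker cells and 0.0664 [0.0318 to 0.122] in keratin-rich cells. Satb1, a chromatin organiser that p63 activates in epidermal progenitors, had 6.49, 45.8 and 102 CPM in the knockout, old control and young control, with a knockout ratio of 0.0633 [0.0172 to 0.163]. Hlf, a PAR-domain clock output factor, had 11.4, 75.2 and 165 CPM and a ratio of 0.0688 [0.0276 to 0.142]. The knockout values were the lowest and the young control values the highest for all 3 genes.

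The genes of 2 epidermal cytokine receptors were among the 12. Il20ra, a receptor chain for IL-19, IL-20 and IL-24, had 2 UMIs in knockout cells, 97 in old control cells and 463 in young control cells, a knockout ratio of 0.0469 [0.00567 to 0.170]. Il1rl2, the receptor of IL-36, had 2, 154 and 485 UMIs, with a knockout ratio of 0.0448 [0.00541 to 0.163]. Fbxo32, an F-box ubiquitin ligase known from muscle atrophy, had a ratio of 0.0879 [0.0438 to 0.158], the transporters Slc4a8 and Slc27a3 ratios of 0.0643 [0.0175 to 0.165] and 0.0808 [0.0324 to 0.167], and Fam71a one of 0.0868 [0.0474 to 0.146]. Cyp2g1, a cytochrome P450, and Mob3b, a MOB family protein, were at 0 UMIs in knockout cells, against 370 and 310 UMIs in young control cells. Both passed the filter on low values by their control levels alone, which fixed the direction of their calls. With a floor of 3 counts in the knockout sum they were 11.4-fold and 9.51-fold lower. The exact intervals of their ratios reached slightly nearer to 1, up to 0.109 and 0.130. Cyp2g1 was not called in thinned cells, where its ratio was 0 [0 to 1.30], nor in keratin-rich cells (0 [0 to 6.94]), and Mob3b, Satb1 and Il20ra were not called in keratin-rich cells. Wwtr1 itself completed these 12 genes.

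Of the 12 genes with the highest ratios in the knockout, 1 was robust. Sele and Selp, the endothelial selectins, had 73 and 133 UMIs in knockout cells, 10 and 16 in old control cells and 1 and 13 in young control cells. Their knockout ratios were 793 [138 to 31743] and 111 [62.8 to 214], and in low-marker cells 672 [112 to 27401] and 85.1 [45.6 to 171], but neither was called after subtraction. In knockout barcodes without the keratin threshold they were higher still, at 246 and 488 CPM, against 118 and 216 CPM in the selected knockout cells. The defining endothelial gene Pecam1 was at 0 by selection, and the other 5 endothelial markers summed to 221, 57.5 and 21.4 CPM in the knockout, old control and young control. Il6, Lrg1, Ptprb, Tmem252, Pcp4 and Ncmap were likewise lower in selected knockout cells than in those barcodes. Cxcl2, Tpsb2 (a mast cell tryptase) and Ptx3 had ratios of 40.3 [27.6 to 60.4], 47.1 [24.8 to 96.9] and 53.0 [24.4 to 131] over all selected cells, and 3.39 [1.03 to 8.76], 1.97 [0.0458 to 13.6] and 0 [0 to 18.4] in low-marker cells. Cxcl1, a neutrophil chemokine that keratinocytes also make, was the only robust gene of the 12, with 329, 19.7 and 12.1 CPM in the knockout, old control and young control and a low-marker ratio of 10.3 [5.64 to 18.2]. Knockout barcodes without the keratin threshold had 429.7 CPM of it.

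**Figure D4:**
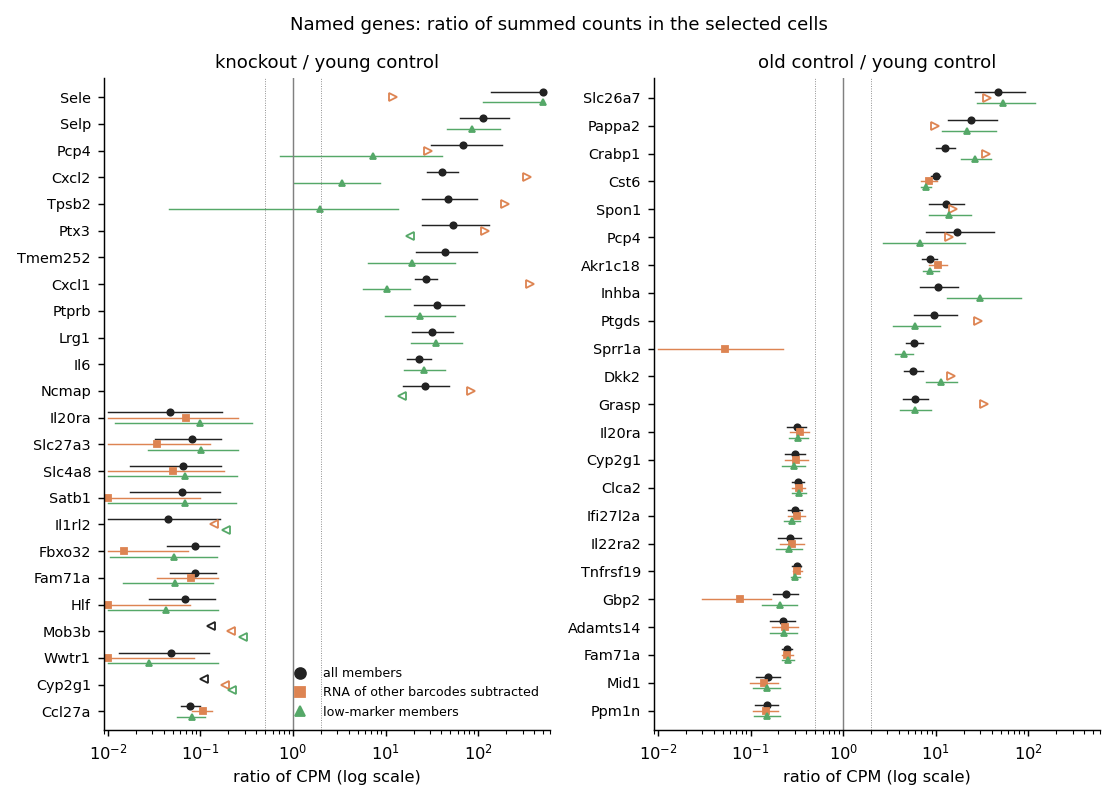
Ratios of CPM (log scale, drawn between 0.01 and 500 only) of named genes in knockout over young control (left) and old over young control (right), over all selected cells (black), with RNA like other barcodes subtracted (orange) and in low-marker cells (green); bars are exact 95% counting intervals, open triangles mark the near bound where a count is 0, a point is left out where that bound is not informative, and dotted lines mark the size rule. All 12 genes lower in the knockout pass the size rule in all 3 views, at ratios such as 0.0779, 0.105 and 0.0801 for Ccl27a.

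Of the 12 genes with the highest ratios in old control cells, 3 were robust. Slc26a7, Pappa2, Spon1, Dkk2, Crabp1 and Inhba had old over young ratios between 5.68 (Dkk2, a Wnt antagonist) and 47.0 (Slc26a7, an anion exchanger), and each was at least as abundant in old control barcodes without the keratin threshold. Cst6 (chr19:5344705-5349574, minus strand), which encodes the cysteine protease inhibitor cystatin M/E, had 462 CPM [410.2 to 519] in knockout cells, 546 CPM [525 to 568] in old control cells and 54.8 CPM [49.3 to 60.7] in young control cells. Its old over young ratio of 9.97 [8.93 to 11.2] was 7.85 [6.97 to 8.87] in low-marker cells and 6.05 [5.21 to 7.05] in keratin-rich cells, although the old control barcodes without the threshold had 1599 CPM. Cst6 is also an upper follicle marker. That list summed, without Plet1, to 1695 CPM in old control cells and 424 CPM in young control cells, and its part was not tested. In cells with 0 UMIs of 7 markers of other cell types, of which 137 were old and 4 young control cells, the Cst6 ratio was 0.863. Akr1c18, a 20α-hydroxysteroid dehydrogenase, had 164 CPM in old control cells and 19.1 CPM in young control cells, a ratio of 8.57 [7.09 to 10.4], and Ptgds, a prostaglandin D synthase, had 25.8 and 2.69 CPM. Cst6, Akr1c18 and Ptgds were the robust genes. In keratin-rich cells Akr1c18 had a ratio of 3.56 [1.95 to 6.71] and Ptgds 1.81 [0.810 to 4.02], neither called. Ptgds had 42.7 CPM in old control barcodes without the threshold, and its ratio in the other keratinocytes was 0.499 [0.426 to 0.583]. Sprr1a, a cornified envelope precursor, had 102 CPM in old control cells and 17.5 CPM in young control cells, a ratio of 5.83 [4.75 to 7.21] that became 0.0530 [0.00461 to 0.223] after subtraction. Grasp (ratio 6.01 [4.43 to 8.28]) and Pcp4 (ratio 16.7 [7.75 to 43.0]) were not robust.

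Of the 12 genes with the lowest ratios in old control cells, 11 were robust. Ifi27l2a, an interferon-inducible gene, had 149 UMIs in old control cells and 736 in young control cells, or 33.4 and 109.9 CPM, a ratio of 0.304 [0.253 to 0.363] that was 0.281 [0.227 to 0.345] in low-marker cells. Il22ra2, a soluble IL-22 binding protein, and Il20ra had ratios of 0.264 [0.196 to 0.351] and 0.315 [0.25 to 0.393]. Tnfrsf19, a TNF receptor family member of follicle and progenitor cells also called Troy, had 88.4 CPM in old control cells and 281 CPM in young control cells. Ppm1n, a predicted phosphatase, and Mid1, an X-linked ubiquitin ligase, had ratios of 0.150 [0.111 to 0.199] and 0.155 [0.115 to 0.206], while Fam71a, Clca2, Adamts14 and Cyp2g1 lay between 0.222 and 0.329. Adamts14, Il22ra2, Ppm1n and Cyp2g1 were under 20 CPM in knockout and old control cells. They passed the filter on low values only by their young control level, which fixed the direction of their calls. The Cyp2g1 ratio reversed to 3.69 in cells of 2000 to 8000 UMIs and to 1.19 in cells thinned to 1500 UMIs. Gbp2, an interferon-induced GTPase, was the one that was not robust, with a ratio of 0.242 [0.176 to 0.328] over all selected cells. Old over young ratios of these genes in the other keratinocytes past the Krt5 and Krt14 threshold were 0.278 for Ifi27l2a, 0.316 for Il20ra and 0.788 for Cyp2g1.

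The lists described next were read against the median of all genes, which was 0.04 (log2) for knockout and -0.11 for old control, each over young control. Their counts stand beside the shares of all genes called, 8.85% higher and 6.23% lower for the knockout, and 2.49% and 2.06% for the old control. A count of 0 in a short list is close to the old control shares and is no result about that list. Of 20 hemidesmosome and basement membrane genes, 6 were called lower and 3 higher in knockout cells, with a median log2 ratio of -0.38. Dst, which encodes the plakin BPAG1 that links keratin filaments to hemidesmosomes, had 637, 1277 and 2273 CPM in the knockout, old control and young control, a knockout ratio of 0.280 [0.253 to 0.310]. Itga6 had 264, 492 and 909 CPM and a ratio of 0.291 [0.247 to 0.340], and Lamb3, a chain of the epidermal laminin 332, 42.2, 126 and 220.0 CPM and a ratio of 0.192 [0.125 to 0.282]. Itgb4 (ratio 0.409 [0.323 to 0.512]) was the fourth robust fall, and Itga3 and Col7a1 (anchoring fibril collagen) were called lower without being robust. Hspg2, Nid1 and Lamb1, basement membrane components of several tissues, were called higher, and Hspg2 and Lamb1 were robust. Old control cells had 2 genes called lower, Lama5 and Col7a1, with ratios of 0.421 [0.338 to 0.520] and 0.436 [0.382 to 0.496], and Itga6 (0.541 [0.515 to 0.568]) and Dst (0.562 [0.545 to 0.579]) fell short of the 0.5 threshold. The list's old over young median was -0.41. Keratin-rich knockout cells, 26 in number, had a list median of 0.19, against -0.59 after subtraction and -0.54 in low-marker cells.

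Of 17 transcription factor genes of the basal state, 8 were called lower and 1 higher in knockout cells (median -0.93; -0.43 after subtraction, -0.99 in low-marker and -1.06 in keratin-rich cells), and 5 falls were robust. Trp63 had 165 CPM [135 to 201] in knockout cells, 283 CPM [268 to 299] in old control cells and 501 CPM [484 to 519] in young control cells, with a knockout ratio of 0.330 [0.268 to 0.402]. Gata3, a regulator of barrier lipid genes, had 123, 302 and 610.3 CPM in the same order. Klf5, a factor of proliferating basal cells, had 206, 362 and 594 CPM, and Sox6 13.0, 57.7 and 136 CPM. For these 4 genes the knockout was lowest and the old control lay between. Cebpb, a differentiation and stress factor, was the gene called higher, at 967, 641 and 446 CPM. In the old control, Sox6, Satb1 and Gata3 were called lower, at ratios of 0.425 [0.368 to 0.489], 0.447 [0.380 to 0.523] and 0.495 [0.465 to 0.527], and Sox6 and Satb1 were robust.

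Of 18 cell junction genes, 7 were called lower and 2 higher in knockout cells (median -0.73, and -0.38 after subtraction), but Dsg2 alone among the falls was robust. Dsg2, a desmosomal cadherin of basal and follicle cells, had 21.1, 88.0 and 191 CPM in the knockout, old control and young control. Cdh1, the epithelial adherens junction cadherin, had 105, 177 and 249 CPM, and Perp, a p63 target in desmosomes, 574, 1294 and 1317 CPM. Epcam, an epithelial surface glycoprotein, was called higher in knockout cells (189.8 CPM) and in old control cells (182 CPM), against 90.6 CPM in young control cells. Old control cells had 1 gene of the list called lower, Dsg2 at 0.460 [0.409 to 0.515], and Cldn4 called higher beside Epcam.

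Of 14 genes of early differentiation, 3 were called higher and 1 lower in knockout cells. Krt1, a keratin of the layers above, had 423, 81.7 and 117 CPM in the knockout, old control and young control, a knockout ratio of 3.63 [3.14 to 4.18] that was 3.07 [2.47 to 3.78] in low-marker and 4.16 [3.04 to 5.57] in keratin-rich cells. Sbsn, a suprabasal secreted protein, had 321, 193 and 119 CPM. Dsg1a, the desmoglein of upper layers, went the other way at 42.2, 146 and 243 CPM. Krt10 and Krtdap were capped by the selection in every library. Of the 14 genes, 0 were called between old and young control cells, close to the shares of all genes.

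Known targets of YAP and TAZ were called in both directions. Of 15 tested, 3 were called lower and 1 higher in knockout cells, beside 6.23% and 8.85% of all genes, with a median of -0.29. After subtraction the median was -1.02, with 5 called lower and 2 higher. Ptpn14, a phosphatase that is both a target and a brake of YAP, had 39, 1035 and 2144 UMIs, or 63.3, 232 and 320.2 CPM, in the knockout, old control and young control, a knockout ratio of 0.198 [0.140 to 0.271]. Igfbp3, a binding protein of insulin-like growth factors, had 264, 439.6 and 603 CPM, and Ajuba, a LIM scaffold that restrains the LATS kinases, 34.1, 61.7 and 97.7 CPM. Ptpn14 and Igfbp3 were robust and Ajuba was not. The canonical matricellular targets went apart: Cyr61 had 514, 499 and 630.2 CPM and was not called (knockout ratio 0.816 [0.726 to 0.915]), and Ctgf had 114, 76.8 and 41.5 CPM and was called higher, robustly. In knockout barcodes without the keratin threshold Cyr61 had 738 CPM and Ctgf 31.3 CPM, and the part of such RNA in their levels was not tested. Of the 15 targets, 0 were called between old and young control cells, close to the 2.49% higher and 2.06% lower among all genes. Their median was -0.39, and -0.01 after subtraction.

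Promoters of 4 of these genes are shown because they hold or lack the letters that TEAD factors are known to bind. They span 250 bases before to 50 after the annotated start (RefSeq, GRCm38.p6, 5′ to 3′ on the gene's strand), with capitals marking GGAATG or its reverse complement CATTCC.
Ptpn14 (chr1:189728018-189728317, plus strand): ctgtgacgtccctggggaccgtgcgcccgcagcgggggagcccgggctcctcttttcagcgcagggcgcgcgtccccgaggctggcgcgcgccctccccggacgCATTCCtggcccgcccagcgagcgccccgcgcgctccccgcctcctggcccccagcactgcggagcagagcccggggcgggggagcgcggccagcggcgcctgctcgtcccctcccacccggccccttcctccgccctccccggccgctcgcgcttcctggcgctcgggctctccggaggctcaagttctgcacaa
Ajuba (chr14:54577612-54577911, minus strand): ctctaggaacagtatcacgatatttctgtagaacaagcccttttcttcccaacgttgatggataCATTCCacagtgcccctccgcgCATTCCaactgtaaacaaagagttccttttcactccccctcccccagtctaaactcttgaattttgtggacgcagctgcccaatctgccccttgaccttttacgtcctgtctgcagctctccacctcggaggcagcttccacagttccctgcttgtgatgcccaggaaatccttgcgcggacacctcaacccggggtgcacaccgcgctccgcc
Igfbp3 (chr11:7213874-7214173, minus strand): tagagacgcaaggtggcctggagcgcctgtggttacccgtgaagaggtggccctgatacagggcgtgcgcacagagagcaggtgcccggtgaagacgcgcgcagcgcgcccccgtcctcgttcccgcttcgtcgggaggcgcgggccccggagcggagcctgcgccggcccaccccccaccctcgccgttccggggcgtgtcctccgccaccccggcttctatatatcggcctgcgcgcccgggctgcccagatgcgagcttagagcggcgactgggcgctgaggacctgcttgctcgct
Cyr61 (chr3:145649936-145650235, minus strand): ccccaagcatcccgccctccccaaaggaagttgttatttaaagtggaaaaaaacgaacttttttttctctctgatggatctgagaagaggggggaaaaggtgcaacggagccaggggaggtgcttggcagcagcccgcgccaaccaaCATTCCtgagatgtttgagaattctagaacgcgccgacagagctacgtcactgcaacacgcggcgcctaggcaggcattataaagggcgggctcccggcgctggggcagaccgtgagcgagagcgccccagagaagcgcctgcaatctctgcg
The motif, searched on both strands without overlap to another motif, occurred in 8 of the 16 list genes that had a promoter entry and in 14.7% of all 32851 promoters of the table. The first count is by gene, with a match in any of its promoters, and the second by promoter, so they are not directly comparable. Ptpn14 and Cyr61 each hold 1 match and Ajuba holds 2, whereas the Igfbp3 window holds 0, although Igfbp3 was called lower in knockout cells and Cyr61 was not. A match is a description of letters and not a measured site.

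Upstream, the Hippo list had 3 of 14 tested genes called lower in knockout cells and 0 higher. These were Limd1 and Frmd6, a LIM scaffold and a FERM protein of the pathway, and Amotl1, an angiomotin that binds YAP. Limd1 had 86.0, 134 and 254 CPM in the knockout, old control and young control, Amotl1 69.7, 109 and 204 CPM and Frmd6 81.1, 108 and 193 CPM. All 3 were robust in the knockout, and their old over young ratios were 0.525, 0.535 and 0.560, short of the threshold. Tead1, the DNA-binding partner, was not called in either comparison (87.6, 39.5 and 61.4 CPM). The list median was -0.27 for the knockout, -0.67 after subtraction, and -0.56 for the old control.

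Basal cells are known to make Wnt ligands that maintain them, and Wnt3 and Wnt4 were used for selection. Of 19 other genes tested, 6 were called lower and 3 higher in knockout cells (median -0.73; -0.48 after subtraction, -0.40 in low-marker and 0.03 in keratin-rich cells). Wls, which carries Wnt ligands to the surface, had 69.7, 157 and 255 CPM in the knockout, old control and young control, a knockout ratio of 0.273 [0.197 to 0.370]. Wnt5a and Wnt7b had 6.49 and 9.73 CPM in knockout cells, 36.4 and 42.9 CPM in old control cells and 64.2 and 62.6 CPM in young control cells. The receptor genes Fzd10 and Fzd6 were called lower, and Fzd7, Dkk3 and Tcf7l1 higher. Old control cells had Lgr6, a receptor gene that marks epidermal progenitors, called lower at 40.4 CPM against 100.1 CPM in young control cells (ratio 0.404 [0.341 to 0.477]), as was Znrf3, a ligase that removes Wnt receptors (0.492 [0.383 to 0.626]).

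Jag2, a Notch ligand of basal cells, was 1 of 11 Notch genes and the only one called in knockout cells, a count close to the 6.23% of all genes called lower, at 71.4, 174 and 254 CPM in the knockout, old control and young control. In the EGF receptor list of 12, Areg (amphiregulin, an EGF receptor ligand) was called higher in both comparisons, at 66.5 CPM in knockout cells, 38.4 CPM in old control cells and 8.21 CPM in young control cells. Its ratios were 8.10 [5.27 to 12.4] for the knockout and 4.67 [3.43 to 6.45] for the old control. The feedback genes Errfi1, Spry2 and Dusp6 were also called higher in the knockout, without being robust, and Spry1 was called lower (0.323 [0.201 to 0.493]).

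Of 8 injury keratin and alarm genes, 6 were called higher and 2 lower in knockout cells (median 2.02; 1.60 in low-marker and 2.34 in keratin-rich cells). Of these calls, 4 rises and 0 falls were robust, and the genes named next are all from the rises. Krt17 had 1004 CPM [927 to 1086] in knockout cells, 651 CPM [628 to 675] in old control cells and 186 CPM [176 to 197] in young control cells, with ratios of 5.39 [4.88 to 5.94] for the knockout and 3.49 [3.27 to 3.74] for the old control, and both were robust. Krt6a and Krt16, its partners in wounded epidermis, had 66.5 and 86.0 CPM in knockout cells, 16.8 and 33.2 CPM in old control cells and 19.0 and 18.7 CPM in young control cells. Krt6a shares sequence with other keratin 6 genes, so its counts are uncertain. Stfa3, a stefin of the neutrophil and keratinocyte stress response with near-identical copies, had 139, 34 and 85 UMIs. Lcn2, an antimicrobial lipocalin, was called higher in both comparisons (47.0, 20.2 and 9.56 CPM). Krt17 is also an upper follicle marker, and such markers moved with this list: the 4 tested were called higher in each comparison, at medians of 2.50 for the knockout and 1.88 for the old control. In keratin-rich cells that median was 0.18 for the knockout, and the knockout ratio of Krt17 was 3.86 [2.48 to 5.75]. The part of follicle RNA was not tested.

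Of 16 cytosolic heat shock genes, 6 were called higher and 0 lower in knockout cells, all 6 robust (median 0.87). Hsp90aa1 had 1221, 631 and 469 CPM in the knockout, old control and young control, Hspa1a, an inducible HSP70, 623, 223 and 228 CPM, and the co-chaperone gene Hsph1 95.7, 20.9 and 26.6 CPM. The endoplasmic reticulum list had 4 of 17 called higher, Hspa5, Hsp90b1, Manf and Xbp1, and Xbp1 alone was robust. Of 20 antioxidant genes, 7 were called higher, 5 of them robust. These included Txnrd1 (thioredoxin reductase, 118, 65.1 and 44.5 CPM), Gclm (a subunit of glutathione synthesis, 87.6, 42.6 and 23.6 CPM) and Gpx4 (a lipid peroxidase, 559.6, 356 and 238 CPM). The mitochondrial UMI share was also higher in these cells, as given above, and its part was not tested. Old over young control, 0 of the 16 heat shock and 0 of the 17 reticulum genes were called, close to the shares of all genes. Gstm5 and Gstp1 were called higher among the antioxidants.

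Immediate-early genes, which tissue digestion is known to induce, were called in both directions in knockout cells, 4 of 22 higher and 2 lower beside 8.85% and 6.23% of all genes, with a median of 0.03 that turned negative under TMM (-0.16) and median-of-ratios scaling (-0.11). It was -0.58 after subtraction, with 3 higher and 4 lower, and -0.27 in low-marker cells. Ier3, Egr3, Ier5 and Nr4a2 were called higher, and Dusp1 and Fosb lower. Between old and young control cells Ier3 and Egr2 were called higher, at 949 and 106 CPM against 281 and 48.4 CPM in young control cells, with a list median of 0.45. Fos had 3228, 4430.4 and 4561 CPM in the knockout, old control and young control.

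Of 13 circadian clock genes, 8 were called lower and 2 higher in knockout cells, with a median of -1.51, which was -1.35 after subtraction, -1.46 in low-marker cells and -1.40 in keratin-rich cells. The median was thus negative in each of these views. Dbp, a PAR-domain activator like Hlf, had 16, 771 and 1048 UMIs, or 26.0, 173 and 157 CPM, in the knockout, old control and young control. Nr1d1 and Nr1d2, which encode the REV-ERB repressors, had 63.3 and 30.8 CPM in knockout cells, 113 and 68.7 CPM in old control cells and 183 and 99.5 CPM in young control cells. Per3 and Tef were called lower without being robust, and Rora (0.344 [0.270 to 0.431]) and Bhlhe40 (0.392 [0.318 to 0.478]) were robust. Nfil3, a repressor of the same D-box sites in antiphase to Dbp, was called higher (84.3, 54.5 and 39.1 CPM), as was Bhlhe41 (71.4, 31.6 and 15.2 CPM). The sources used here do not give the hour at which each skin was taken. Between old and young control cells Hlf was called lower (0.456 [0.402 to 0.515]) and Bhlhe41 higher (2.08 [1.60 to 2.71]), with a list median of -0.27.

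Promoters of 3 clock genes are shown for the E-box CACGTG, the letters that CLOCK and BMAL1 are known to bind, in capitals (RefSeq, GRCm38.p6, the same window as above).
Hlf (chr11:90390868-90391167, minus strand): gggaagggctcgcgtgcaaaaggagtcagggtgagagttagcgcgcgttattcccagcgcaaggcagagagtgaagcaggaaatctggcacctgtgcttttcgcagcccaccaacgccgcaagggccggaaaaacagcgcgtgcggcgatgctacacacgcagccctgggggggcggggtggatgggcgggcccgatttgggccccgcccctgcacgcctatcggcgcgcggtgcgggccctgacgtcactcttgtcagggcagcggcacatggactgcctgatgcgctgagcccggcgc
Tef (chr15:81802423-81802722, plus strand): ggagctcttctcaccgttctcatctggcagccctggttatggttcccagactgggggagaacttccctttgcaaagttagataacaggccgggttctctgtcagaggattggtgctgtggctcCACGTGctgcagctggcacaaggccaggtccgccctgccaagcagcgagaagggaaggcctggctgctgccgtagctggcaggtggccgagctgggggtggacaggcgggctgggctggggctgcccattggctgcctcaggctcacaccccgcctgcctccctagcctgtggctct
Bhlhe41 (chr6:145865371-145865670, minus strand): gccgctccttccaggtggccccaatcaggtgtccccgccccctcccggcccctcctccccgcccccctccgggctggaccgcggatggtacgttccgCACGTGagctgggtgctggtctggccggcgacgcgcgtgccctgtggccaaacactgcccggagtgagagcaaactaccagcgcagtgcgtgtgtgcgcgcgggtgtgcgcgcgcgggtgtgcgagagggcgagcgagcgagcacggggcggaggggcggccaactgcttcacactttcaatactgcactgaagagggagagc
The E-box, which reads the same on both strands, occurred in 5 of 16 clock genes with a promoter entry and in 7.15% of all 32851 promoters. Again the first count is by gene, several of which have more promoters than the one shown, and the second by promoter. The windows of Tef, lower in the knockout, and Bhlhe41, higher in the knockout, each hold 1 match, and the Hlf window holds 0. Another Tef promoter (chr15:81811164-81811463), not shown, also holds 1.

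Of 19 antigen presentation and interferon genes, 9 were called lower and 3 higher in knockout cells (median -1.01), and 4 lower and 0 higher in old control cells (median -0.55). Tap1, the peptide transporter, had 45.4, 90.7 and 182 CPM in the knockout, old control and young control, with ratios of 0.25 [0.165 to 0.363] for the knockout and 0.498 [0.444 to 0.558] for the old control. H2-K1, a class I heavy chain whose reads can be shared with near-identical class I genes, had 678, 1454 and 1890.1 CPM, and the light chain gene B2m 777, 1110.0 and 1570.2 CPM. The 3 genes called higher in the knockout were Ifit1, Isg15 and Irf1, at 97.3, 64.9 and 224 CPM in knockout cells against 4.63, 8.06 and 112 CPM in young control cells. Of these 3, 0 were robust, and in knockout barcodes without the keratin threshold they had 225, 233 and 335 CPM. In the knockout 6 of the 9 falls were robust, and in the old control 2 of the 4, that of Ifi27l2a among them.

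Among 13 cytokine genes, 5 were called higher and 2 lower in knockout cells. Il34, the keratinocyte ligand that sustains Langerhans cells, fell with Ccl27a, at 8.11, 28.7 and 40.8 CPM in the knockout, old control and young control (knockout ratio 0.199 [0.0641 to 0.470]). Il6, Cxcl1, Cxcl2, Ccl2 and Cxcl10 were called higher in knockout cells, and of these 5 Cxcl1 alone was robust. Ccl2 had 273, 28.3 and 20.9 CPM in the selected cells, and 263 CPM in knockout barcodes without the keratin threshold. In the old control Cxcl10 was called lower (0.376 [0.269 to 0.516]).

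Of 21 cholesterol and fatty acid synthesis genes, 16 were called higher and 1 lower in knockout cells, against 8.85% and 6.23% of all genes, and all 17 calls were robust (median 1.74). Insig1, a feedback sensor of sterols, had 79, 217 and 97 UMIs, or 128, 48.7 and 14.5 CPM, in the knockout, old control and young control. Sqle, a rate-controlling epoxidase of cholesterol synthesis, had 109, 46.0 and 26.4 CPM, and Elovl6, a fatty acid elongase, 1113, 122 and 223 CPM. The median was 2.19 in low-marker cells, which held 4655 CPM of sebocyte markers, and 0.84 in keratin-rich cells, which held 470.2 CPM. Elovl6 and Scd1 are on both lists, and the part of sebocyte RNA was not tested. Between old and young control cells Insig1, Fdps and Scd2 were called higher, at ratios of 3.36 [2.63 to 4.32], 2.46 [2.09 to 2.91] and 2.35 [1.87 to 2.95], with a list median of 0.21, and sebocyte markers there were 767 CPM against 891 CPM in young control cells.

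Actin genes were called higher in 8 of 27 cases in knockout cells, led by the smooth muscle tropomyosin Tpm2 (821, 124 and 65.9 CPM in the knockout, old control and young control) and the myosin light chain Myl9 (363, 78.8 and 32.7 CPM). Their median was 0.49 over all selected cells and 0.12 after subtraction, and Tmsb10, a thymosin, was the only robust one. Mural and muscle markers summed to 2637 CPM in knockout cells, 296 CPM in old control cells and 326 CPM in young control cells, and their part was not tested. Actb, the cytoplasmic actin, had 5208, 5083 and 2472 CPM, called higher in both comparisons. Respiratory chain genes were called higher in 4 of 25 cases in the knockout (Sdhb, Cycs, Ndufa4 and Ndufb8), beside 8.85% of all genes. In the old control 0 of 25 were called higher, beside 2.49% of all genes. Among cell-cycle inhibitors and arrest genes, Ccnd2, which encodes cyclin D2, was called lower in knockout cells (240.1, 862 and 1475 CPM; ratio 0.163 [0.137 to 0.191]), while Cdkn2d, an inhibitor of CDK4 and CDK6, was called higher in both comparisons (64.9, 51.4 and 19.0 CPM).

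**Figure D5:**
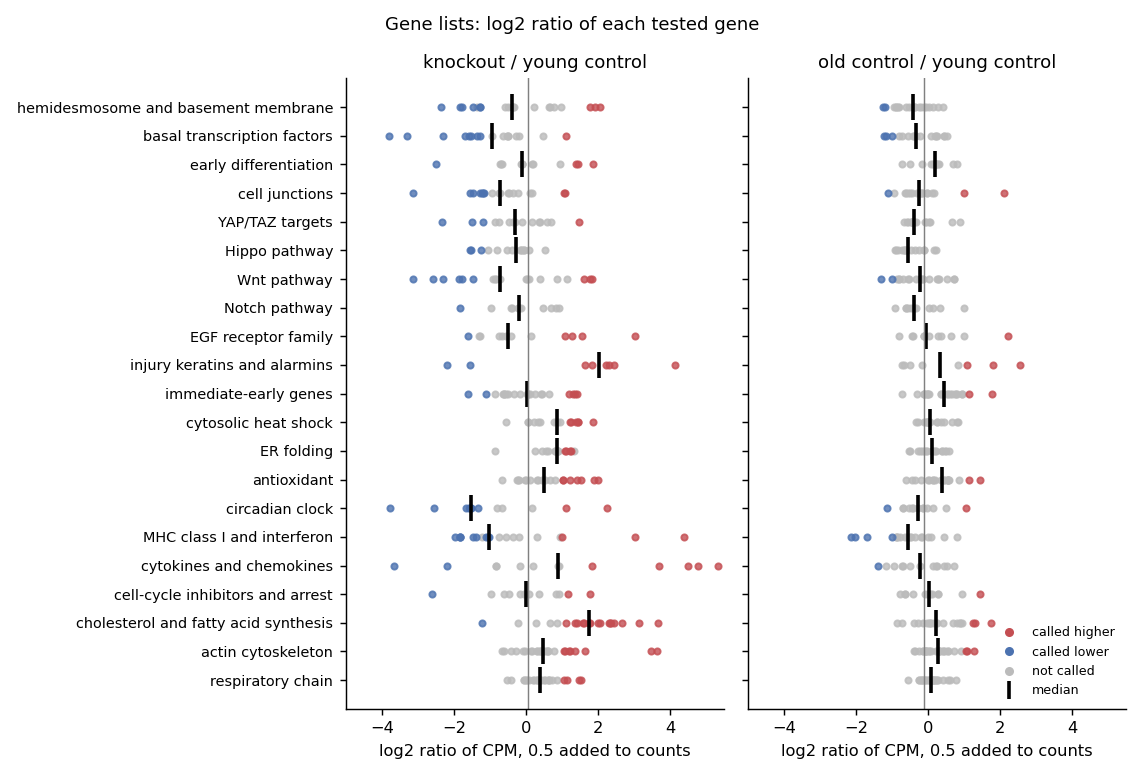
Log2 ratio of each tested gene of 21 lists in knockout over young control (left) and old over young control (right); points are genes, coloured by the size rule, black bars are list medians and the grey line is the median of all tested genes. The clock list has a median of -1.51 for knockout cells and -0.27 for old control cells, and the cholesterol and fatty acid list 1.74 and 0.21; both panels share the young control.

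Part of the calls recurred in other keratinocytes. The other keratinocytes past the Krt5 and Krt14 threshold (496 in the knockout, 1894 in the old control and 1527 in the young control) had been put apart by suprabasal, follicle, cycling or too few basal genes. Of the 380 genes called lower in selected knockout cells, 158 had a ratio of 0.5 or less in them too, and of the 540 called higher, 179 had a ratio of 2 or more. Of all 6102 tested genes, 4.59% reached that lower and 3.23% that higher ratio there. For old over young control these numbers were 46 of 126 and 36 of 152, beside 1.23% and 0.836% of all tested genes. Ccl27a had a knockout ratio of 0.187 [0.176 to 0.199] there and 0.0779 [0.0610 to 0.0981] in the selected cells, Trp63 0.632 [0.590 to 0.677] and 0.330 [0.268 to 0.402], Hlf 0.186 [0.146 to 0.234] and 0.0688 [0.0276 to 0.142], and Dsg2 0.390 [0.331 to 0.458] and 0.110 [0.0585 to 0.189]. The old over young ratio of Cst6 was 4.70 [4.54 to 4.86] there and 9.97 [8.93 to 11.2] in the selected cells, and that of Krt17 2.03 [1.98 to 2.07] and 3.49 [3.27 to 3.74]. Whether a ratio differs between these cell sets was not tested, since the selection made the sets.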

How the data were processed

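Single-cell RNA was captured from dorsal skin in 3 libraries, 1 per group. The deposited matrices hold UMI counts per gene and barcode, whole numbers with no normalization, per the file headers and values. Cell Ranger 3.1.0, Seurat 3.1.5 and the mm10 build are named in the submitters' processing notes, without their roles. The files held 62746 barcodes, of which 33204 passed the quality filter, with 30486583 UMIs in the knockout, 42434480 in the old control and 90146738 in the young control. The selected cells held 616495, 4456010 and 6696420 UMIs in the same order.

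UMI counts were summed over the selected cells of each library (Python 3.11.15, numpy 2.4.6, pandas 2.3.3, scanpy 1.11.5) and given as CPM with exact Poisson intervals, and ratios with exact intervals from the binomial split of the counts. No p-value was computed, since no group had a second library. Genes with a mean under 20 CPM, the 21 selection genes and mitochondrial genes stayed out of the calls. Log2 list medians add 0.5 counts to each sum. The calling step was tested on simulated data with known changes.

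The cells, gene lists and marker lists were chosen with earlier results of these data known. Named genes are, in each comparison, the 12 called genes highest and the 12 lowest by the interval bound nearest to 1, plus Yap1, Wwtr1, the selection genes and up to 6 members of each list by mean CPM. Left out were mitochondrial, ribosomal protein, haemoglobin, immunoglobulin and unnamed genes, Xist, Tsix and 4 Y-linked genes, and genes over 5 times more abundant in barcodes without the keratin threshold. Some genes that met this rule are not reported here. The gene symbol Gas5 did not match a unique entry and was not used. Scrublet scores were computed and no cell was removed by them; leaving out the 8% of barcodes with the highest scores was an alternative. The libraries shared 198 barcodes between knockout and old control, 127 between knockout and young control and 137 between old and young control, and 0 of the shared barcodes were selected in both libraries.

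Alternatives were TMM scaling (edgeR 4.0.16 in R 4.3.3), median-of-ratios scaling, a total without selection genes, mitochondrial genes and keratins, thinning to 1500 UMIs, cells of 2000 to 8000 UMIs, at most 10% mitochondrial UMIs, subtraction of free RNA, cells with 0 UMIs of 7 markers of other types, and filters at 5 and 50 CPM. Subtraction of RNA like other barcodes, low-marker cells and keratin-rich cells were added after seeing the data.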

Additional observations from a re-analysis of the deposited data

How the results depend on the processing

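No paired analysis was possible because each group had 1 library, and for the same reason no replicate could be left out. Among recomputed counts and shares 43 stayed within tolerance and 19 moved. Among gene ratios 453 stayed, 89 moved and 6 reversed, and among list medians 598 stayed and 218 moved. Thinning to 1500 UMIs gave 252 genes lower in the knockout. Cells of 2000 to 8000 UMIs gave 337 genes higher and 250 lower in old control cells and an old over young Yap1 ratio of 0.502. Cells with 0 UMIs of 7 markers of other types, only 8 in the knockout, gave 14 genes higher and 72 lower in the knockout with a Wwtr1 ratio of 0, and in the old control 11 genes higher, a Yap1 ratio of 0.383 and a Wwtr1 ratio of 0.497. A filter at 5 CPM gave 1030 for genes higher, knockout over young control, and 354 higher and 211 lower in the old control. A filter at 50 CPM gave 252 higher and 233 lower in the knockout, and 68 higher and 56 lower in the old control, from fewer genes tested. Subtraction of RNA like other barcodes gave knockout ratios of 0.0349 for Yap1 and 0.00112 for Wwtr1. Keratin-rich cells gave 255 genes higher and 113 lower in the knockout, a Yap1 ratio of 0 there, and an old over young Wwtr1 ratio of 0.910. The share of selected cells was 3.09% in the knockout and 7.83% in the young control when cells needed 2000 UMIs and could hold up to 10% mitochondrial UMIs, and 13.2% in the old control and 9.96% in the young control with thinned selection. Reversed ratios of old over young control were Cyp2g1 at 1.19 in thinned cells and 3.69 in cells of 2000 to 8000 UMIs, Cst6 at 0.863 in cells without the 7 markers, and Sprr1a at 0.0530 after subtraction. Ptx3 and Ncmap had a knockout ratio of 0 in low-marker cells. Beyond fewer cells or genes, the cause was not tested. The 616495 knockout UMIs limit its ratios to genes of moderate abundance.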
